A study of Mus musculus with 6 samples.

Results

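The Jun and Fos genes encode the subunits of the transcription factor AP-1, and the 7 of them were followed here in adult mouse dorsal root ganglia: Jun, Junb, Jund, Fos, Fosb, Fosl1 and Fosl2. They were taken by symbol from the 55809 genes in the count files, and all 7 were among the 20146 genes with enough counts to be tested. The family was chosen from the readout, because Jund had already been called higher in the stress pools by the comparison used below. The other 6 genes follow from the family name. The values of Jund between the groups are therefore given as a description, with no p-value, and its call, its separation and its pattern support nothing below.

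The libraries came from dorsal root ganglia, the clusters of sensory neuron cell bodies and glia beside the spinal cord, of 8-week-old C57BL6J mice with no engineered allele named. Each of the 3 control and 3 prenatal stress libraries was 1 pool of 3 mice by its title. The mouse number in the series design matches pools of separate mice, but the protocol gives 3 mice per group, so the labels do not settle whether the pools hold different animals. Stressed dams were restrained in perforated tubes under a 200 W lamp for 30 min, 3 times a day, in late gestation (E13 to E18 in the protocol, E13.5 to E18.5 in the series design), while control dams were not disturbed. The offspring themselves received no treatment, and the labels do not name a pool's litters or sex.

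AP-1 is a dimer. Jun proteins can pair with each other or with Fos proteins, whereas Fos proteins need a Jun partner to bind DNA, so the makeup of the Jun and Fos pool bears on which dimers can form. Jun and Fos are textbook immediate early genes, switched on within minutes by growth factors or electrical activity. In sensory neurons Jun is best known for its rise after axon injury, while Jund is known as the broadly expressed and least inducible Jun gene.

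The parts that make these genes a family, and that could let their reads be mixed up, are shown first. Within each class the 90-base coding stretch most alike among its members lies in the basic region that contacts DNA and, in the Fos class, the start of the adjoining leucine zipper. The sequences are from GENCODE M21 transcripts, and capitals mark bases that differ from Jun in the first set.
Jun: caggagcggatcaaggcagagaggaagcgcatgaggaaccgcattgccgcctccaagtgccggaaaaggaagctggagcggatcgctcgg
Junb: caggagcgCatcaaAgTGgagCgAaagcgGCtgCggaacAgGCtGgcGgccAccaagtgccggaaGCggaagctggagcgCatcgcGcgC
Jund: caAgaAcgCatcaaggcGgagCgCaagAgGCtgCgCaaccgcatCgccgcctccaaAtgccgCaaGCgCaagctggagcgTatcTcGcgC
In the second set capitals mark bases that differ from Fos.
Fos: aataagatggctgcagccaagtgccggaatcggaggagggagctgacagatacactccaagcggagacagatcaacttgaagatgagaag
Fosb: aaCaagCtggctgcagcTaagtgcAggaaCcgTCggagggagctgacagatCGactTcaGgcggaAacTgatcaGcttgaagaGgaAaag
Fosl1: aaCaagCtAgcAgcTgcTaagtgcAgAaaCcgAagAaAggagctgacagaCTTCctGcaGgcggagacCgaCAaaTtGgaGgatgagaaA
Fosl2: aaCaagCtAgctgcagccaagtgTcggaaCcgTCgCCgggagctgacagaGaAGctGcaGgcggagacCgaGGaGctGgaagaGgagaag
Even here Junb differed from Jun at 20 of 90 bases and Jund at 21, and the Fos relatives differed from Fos at 16 (Fosb), 20 (Fosl2) and 25 (Fosl1). The longest run of identical bases shared by any pair of members' transcripts was 20 bases, between Jun and Jund. No member matched a transcript of another gene at 90% identity or more over 200 bases, so no near-identical copy was found that could take a member's reads.

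Members do overlap genes on the opposite strand in GENCODE M21. The antisense gene Gm11175 covers 52.6% of the exon bases of Jund, Ccdc85b covers 57.2% of those of Fosl1, Prdx2 covers 7.52% of those of Junb and Junos covers 7.28% of those of Jun. The library kit keeps strand, but the strand setting of the counter is not given in the sources used here. Gm11175 held 21 to 38 counts per pool against 1294 to 2670 for Jund, so its counts were few beside those of its partner. These few counts cannot show whether reads in the shared bases were counted for Jund, and this was not tested. Levels per kb of transcript given below use the full length, so uncounted reads would make those of Jund and Fosl1 too low.

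The 2 best-known inducible promoters of the family are shown so that the motifs named for them can be seen in place. The 250 bases before the start are printed from the RefSeq table (build GRCm38.p6), which places both starts on the same base as GENCODE M21. Capitals mark the motifs found. The Jun window is on the minus strand at chr4:95052223-95052472, and the Fos window on the plus strand at chr12:85473640-85473889.
Jun: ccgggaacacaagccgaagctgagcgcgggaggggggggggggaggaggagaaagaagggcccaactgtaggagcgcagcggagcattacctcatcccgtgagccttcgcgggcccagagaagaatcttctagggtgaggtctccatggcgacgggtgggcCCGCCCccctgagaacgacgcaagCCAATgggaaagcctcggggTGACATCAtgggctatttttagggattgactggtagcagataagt
Fos: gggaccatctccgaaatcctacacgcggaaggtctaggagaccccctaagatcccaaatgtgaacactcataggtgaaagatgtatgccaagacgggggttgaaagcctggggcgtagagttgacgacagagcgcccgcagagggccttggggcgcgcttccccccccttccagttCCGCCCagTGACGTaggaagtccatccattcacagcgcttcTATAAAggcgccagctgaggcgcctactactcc
Motifs were searched on both strands as exact letters. Jun held TGACATCA, a variant AP-1 site, 45 bases before its start, with CCAAT at 65 and the GC box GGGCGG (reverse strand) at 89 bases. Fos held TGACGT, the core of a cyclic AMP response element (TGACGTCA in full, which contains the core), at 66 bases, with TATAAA at 33 and GGGCGG (reverse strand) at 74. Of all 32851 promoter windows of this length, 2.93% held TGACATCA, 6.47% TGACGT, 12.4% TATAAA, 33.8% CCAAT and 32.7% GGGCGG. The classic AP-1 site TGACTCA, present in 4.46% of windows, and the full TGACGTCA, in 1.55%, were in none of the 6 members' windows of the table. Junb held CCAAT, Fosb and Fosl2 held GGGCGG, and the window of Jund held none of the motifs searched. The RefSeq start lies 1210 bases from the GENCODE M21 start for Jund and 671 bases from it for Fosl2, so these windows may not adjoin the transcripts that were counted, and they are not printed. Fosl1 is not in the table.

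Each pool had between 51749334 and 87421228 gene counts. Control pool 3 stood apart in skeletal muscle markers, whose 6 genes summed to 2110 CPM there (CPM, gene counts scaled to a common library size with TMM factors) and to 14.1 to 44.3 CPM in the other 5 pools. Although the labels speak of both sexes, Xist had 9 to 19 counts per pool and Ddx3y, on the Y chromosome, was present in every pool at 77.5 to 81.1 CPM. Neurons were present by all 8 of their markers, none of them at 0 in any pool. The 8 neuronal markers summed to 8090 to 8276 CPM in controls and 7760 to 8002 in stress pools. Taken 1 by 1 they had no common direction, with 4 of the 8 higher in stress pools and a median log2 fold change of 0.0091. The 6 satellite glia markers summed to 2383 to 2568 CPM in controls and 2113 to 2227 in stress pools. Of these, 0 of 6 were higher in stress pools and the median log2 fold change was -0.26. No marker of either list passed the test. In bulk ganglia fewer cells of a type and less RNA per cell cannot be told apart. The part of these differences in the sums in the results below was not tested.

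Jun was the most abundant member in every pool, per kb of transcript and by CPM. Per kb, so that genes of different length can be compared, the order of the group means was the same in both groups. Jun stood at 29.9 ± 1.13 CPM per kb in controls and 31.8 ± 0.917 in stress pools (SD, n = 3 pools each, as for every ± below unless SE is named). Jund followed at 12.1 ± 0.19 and 20.0 ± 1.02, then Junb at 6.49 ± 0.914 and 7.76 ± 0.446. Fos was next at 4.57 ± 0.664 and 3.27 ± 1.01, ahead of Fosl2 at 3.48 ± 0.19 and 2.75 ± 0.349. Fosb, at 0.44 ± 0.0672 and 0.428 ± 0.101, and Fosl1, at 0.192 ± 0.0288 and 0.13 ± 0.0473, were scarce. Neighbours in this order did not overlap between pools, except Fos and Fosl2 in the stress pools. By CPM, which is not scaled to length, the long Fosl2 transcript stood above Fos in both groups and above Jund in controls (22.7 against 20.2 CPM), but below Jund in stress pools (18.0 against 33.4 CPM).

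**Figure D1:**
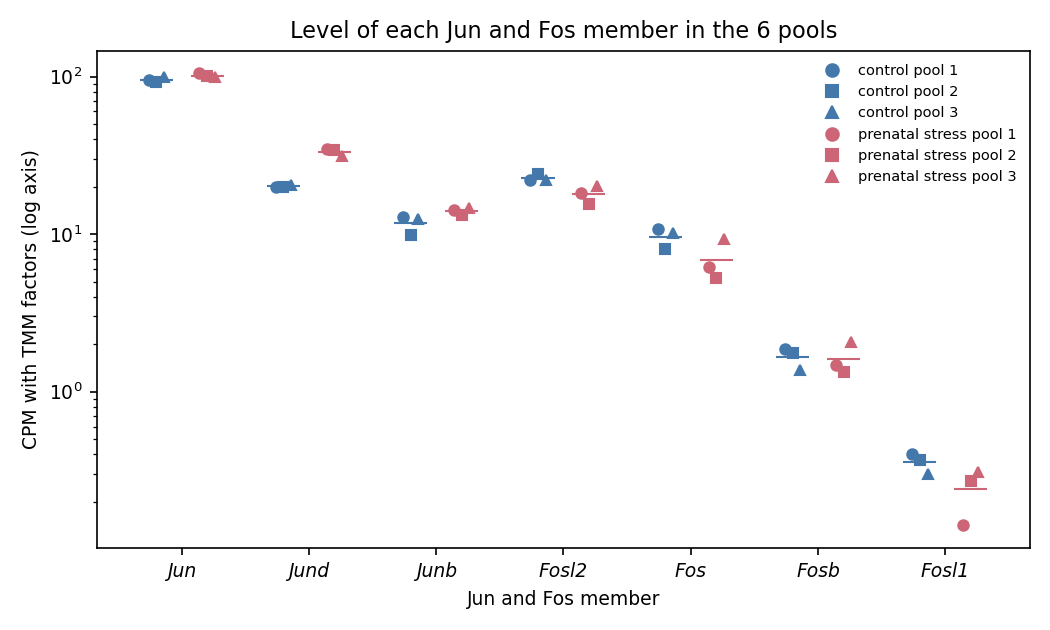
Level of each Jun and Fos member (x axis) in CPM with TMM factors on a log axis, with 1 point per pool (blue control, red prenatal stress; shape gives the pool number) and a line at each group mean. Jund sits at 19.9 to 20.5 CPM in controls and 31.5 to 34.5 in stress pools, while the 2 groups of Fos, Fosb and Fosl1 overlap.

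The tests below come from edgeR's quasi-likelihood test of stress against control over all 20146 genes, with Benjamini-Hochberg adjustment, and a gene is called at an adjusted p under 0.05. Of all genes tested, 0.129% were called (0.0844% higher and 0.0447% lower in stress pools). Among the 7 members 1 was called, Jund, which is the value the family was chosen on, so nothing is read from that count. Of the other 6 members none was called. The groups did not overlap for 3 of these 6, Jun and Junb with all stress pools above all control pools and Fosl2 with all below. Over all genes tested 18.1% did not overlap (9.33% higher, 8.76% lower). An unadjusted p under 0.05 was reached by 2 of these 6, Junb and Fosl2, and by 11.1% of all genes. The median log2 fold change was -0.04 over the 7 members, -0.19 over the 6 without Jund and 0.01 over all genes tested.

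Among the Jun genes, Jund had the largest fold change, the value the family was chosen on. Jund, a Jun protein known to restrain growth in several cell types, measured 20.0, 19.9 and 20.5 CPM in control pools 1 to 3 and 34.5, 34.4 and 31.5 CPM in stress pools 1 to 3. All 3 stress pools lay above all 3 control pools, with stress pool 3 the lowest of its group. The means were 20.2 ± 0.317 and 33.4 ± 1.71 CPM, a ratio of 1.66 and a log2 fold change of 0.73 ± 0.05 SE. Without control pool 3, the pool with muscle RNA, it was 0.74. The SD of Jund was 1.57% of the mean in controls and 5.11% in stress pools, beside 3.80% and 2.88% for Jun. Counting error was 2.78% for the smallest count of 1294.

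Jun, the subunit that sensory neurons raise after axon injury, measured 95.0, 91.9 and 99.1 CPM in controls and 105, 100.3 and 99.3 CPM in stress pools. The groups barely separated, since the lowest stress pool and the highest control pool were within 1 CPM of each other. The log2 fold change was 0.09 ± 0.04 SE and was not called (adjusted p = 0.463). Junb, an immediate early Jun gene that can oppose Jun at some promoters, measured 12.9, 9.86 and 12.5 CPM in controls and 14.2, 13.2 and 14.7 CPM in stress pools. Control pool 2 was the low one, and its omission brought the log2 fold change from 0.26 ± 0.11 SE to 0.14. Junb was not called (adjusted p = 0.446). Without control pool 3 the log2 fold changes of the members other than Jund were 0.12 for Jun, 0.30 for Junb, -0.45 for Fos, -0.16 for Fosb, -0.71 for Fosl1 and -0.36 for Fosl2, with none called.

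The 4 Fos genes had values below 0 and none was called. Fosl2 encodes Fra-2, a Fos relative that lacks the strong activation domain of Fos, and it measured 21.9, 24.2 and 22.1 CPM in controls and 18.3, 15.6 and 20.1 CPM in stress pools. Each stress pool lay below each control pool. The log2 fold change was -0.34 ± 0.09 SE, and Fosl2 was not called (adjusted p = 0.319), although the DESeq2 Wald test gave it an adjusted p of 0.0296. Over its 15 alternatives the adjusted p of Fosl2 ranged from 0.0296 to 0.634, and its log2 fold change from -0.43 to -0.25.

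Fos, the partner of Jun after acute stimulation, measured 10.7, 8.06 and 10.2 CPM in controls and 6.15, 5.23 and 9.30 CPM in stress pools. Stress pools 1 and 2 lay below all controls, while stress pool 3 lay above control pool 2. The log2 fold change was -0.49 ± 0.21 SE (adjusted p = 0.458), and it was -0.77 without stress pool 3 and -0.33 without stress pool 2. Stress pool 3 also had the highest sums of neutrophil and marrow markers (405 CPM over 7 genes, against 44.2 to 298.5 in the other 5 pools) and of red cell markers (619 CPM over 5 genes, against 93.9 to 384.6), and no marker of either list was at 0 in any pool. Their part in the level of Fos was not tested.

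Fosb, whose shorter splice form accumulates in neurons with repeated activity, measured 1.86, 1.76 and 1.38 CPM in controls and 1.47, 1.34 and 2.05 CPM in stress pools. The groups overlapped throughout, and the log2 fold change of -0.04 ± 0.21 SE had no stable direction (adjusted p = 0.962). Gene counts do not separate its splice forms. Fosl1, which encodes Fra-1, had 28, 24 and 26 counts in controls and 11, 18 and 16 in stress pools, or 0.404, 0.37 and 0.298 CPM against 0.142, 0.273 and 0.31 CPM. Counting error alone is 30.2% at the smallest of these counts, so the log2 fold change of -0.59 ± 0.32 SE (adjusted p = 0.541) is not precise at this depth. It was -0.30 without stress pool 1 and -0.80 without stress pool 3.

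Fosl1 shares most of its exon bases with Ccdc85b, a gene for a coiled-coil protein on the opposite strand that measured 17.8, 18.0 and 17.8 CPM in controls and 33.4, 33.2 and 32.5 CPM in stress pools. Ccdc85b rose by 0.89 ± 0.04 SE on the log2 scale (edgeR adjusted p = 0.000721). Whether reads of Ccdc85b enter the counts of Fosl1 was not tested. The other opposite-strand partners were not called: Gm11175 at Jund stood at 0.42 ± 0.24 SE (adjusted p = 0.557), Prdx2 at Junb at -0.09 ± 0.03 SE (adjusted p = 0.366) and Junos at Jun at -0.16 ± 0.14 SE (adjusted p = 0.711).

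**Figure D2:**
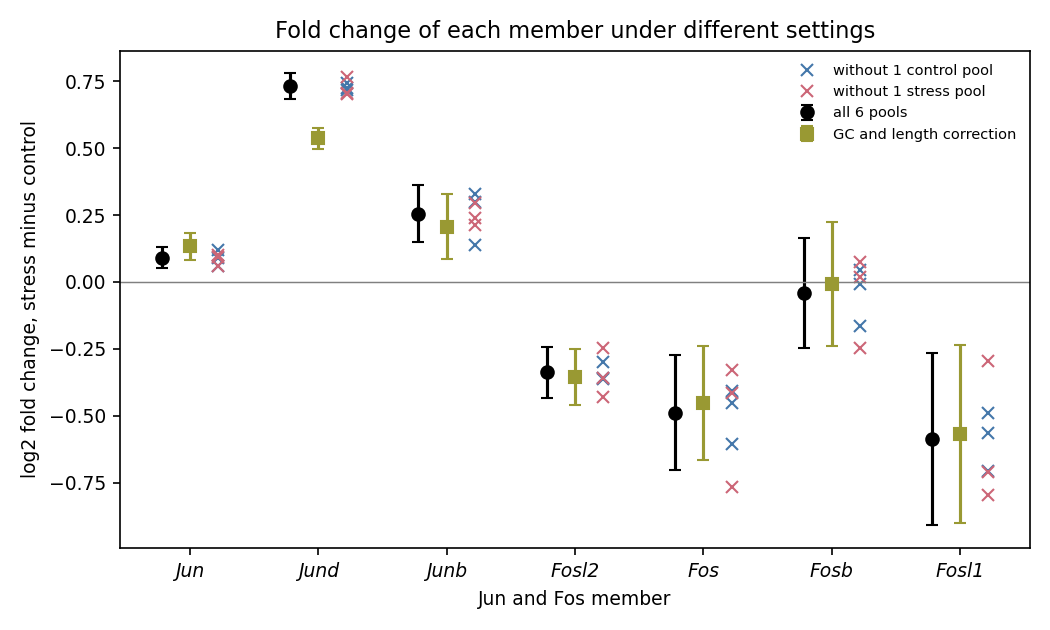
The log2 fold change of stress minus control (y axis) for each member, with all 6 pools (black, ± SE), after a correction for GC content and transcript length (olive squares, ± SE) and with 1 pool left out (crosses, blue for a control and red for a stress pool). Jund lies between 0.54 and 0.77 in all settings drawn, Fosl2 between -0.43 and -0.25, and Fosb crosses 0.

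In the makeup of the family total the share of Jund differed most, which is the gene the family was chosen on, so nothing is read from that. Summed over the 7 genes the level was 161.6 ± 5.1 CPM in controls and 175.7 ± 4.86 in stress pools. Without Jund it was 141.5 ± 4.85 and 142.2 ± 5.54. That sum holds shifts in opposite directions. The Fos class stood at 34.4 ± 0.467 CPM in controls and 26.8 ± 4.70 in stress pools, while the means of Jun and Junb were higher in stress pools. Jund held 12.3%, 12.8% and 12.4% of the family counts in control pools 1 to 3 and 19.2%, 20.2% and 17.8% in stress pools 1 to 3. Jun held 58.3% to 59.7% in controls and 56.0% to 58.9% in stress pools, which overlapped. Per kb, the share of Jun did not overlap, at 51.3% to 53.0% in controls and 46.9% to 48.6% in stress pools. The difference for Jun was -1.20 percentage points by counts, -0.33 by counts without stress pool 3 and -4.25 per kb. Fosl2 held 13.5%, 15.5% and 13.3% in controls and 10.2%, 9.14% and 11.3% in stress pools. Fos held 6.58%, 5.16% and 6.12% in controls and 3.42%, 3.07% and 5.24% in stress pools, where stress pool 3 and control pool 2 overlapped. These shares sum to 100% in each pool, so a larger share of one gene forces a smaller one elsewhere, and as scores over chosen members they carry no test.

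**Figure D3:**
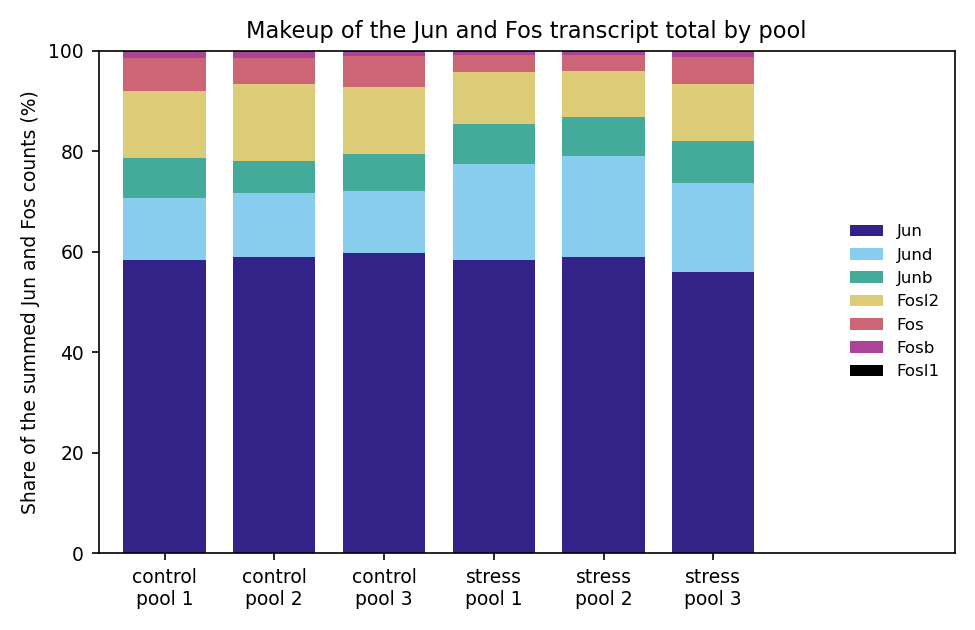
Share of each member in the summed Jun and Fos counts (y axis, %) as stacked bars, 1 bar per pool. The light blue Jund band is 12.3% to 12.8% of the total in control pools and 17.8% to 20.2% in stress pools, while the Jun band stays between 56.0% and 59.7%.

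Set against each other within a pool, where library scaling cancels, the Jun class was higher relative to the Fos class in every stress pool than in any control pool. There were 3.67, 3.54 and 3.89 Jun-class counts per Fos-class count in controls and 5.88, 6.60 and 4.58 in stress pools. Without Jund, on which the family was chosen, Jun and Junb together gave 3.09, 2.96 and 3.28 counts per Fos-class count in controls and 4.56, 5.06 and 3.59 in stress pools, and the groups still did not overlap. Jun and Junb (higher) and Fosl2 (lower) had each separated on their own, so this ratio is not a separate result. The Fos class as a whole was even among controls, at 34.9, 34.4 and 34.0 CPM, and uneven among stress pools, at 26.1, 22.4 and 31.7 CPM. For Jund against Jun the ratio of counts was 0.211, 0.217 and 0.207 in controls and 0.329, 0.343 and 0.317 in stress pools. Fos against Junb gave 0.828, 0.817 and 0.815 in controls, although both genes were lowest in control pool 2, and 0.433, 0.398 and 0.631 in stress pools. The groups did not overlap in the ratio of Fos to Junb, of which Junb had already separated on its own. They did not overlap in that of Jund to Jun either, which follows from the choice of Jund. No share over other pairs of genes was computed, so these ratios carry no test. Fosl2 against Fos overlapped, at 2.05, 3.00 and 2.18 in controls and 2.99, 2.97 and 2.16 in stress pools.

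Jund differs from the other members in base composition. Its transcript is 1.67 kb long, a single exon in GENCODE M21, and 67.1% of its bases are G or C, more than 99.8% of the tested genes with a known GC content. Junb follows at 62.6%, and the other 5 members lie between 51.9% and 58.5%. Of 10 equal bins of genes by GC content, in the highest bin (57.6% to 78.3%, 1919 genes) the median log2 fold change was 0.02, its 99th percentile was 0.73, and 9 of the 17 genes called higher fell there. Above a bound of 65%, set after the data were seen, there were 88 genes with a median log2 fold change of 0.21 and a 90th percentile of 0.71, and 4 of them were called higher (Gm1673, Jund, Tlx2 and Tpgs1). A correction of each library for GC content and length left Jund at 0.54 ± 0.04 SE, with predicted offsets of -0.09, -0.12 and -0.07 (log2) in control pools and 0.14, 0.17 and -0.02 in stress pools. The same correction left Junb at 0.21 ± 0.12 SE, Fosl2 at -0.35 ± 0.10 SE and Fos at -0.45 ± 0.21 SE.

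**Figure D4:**
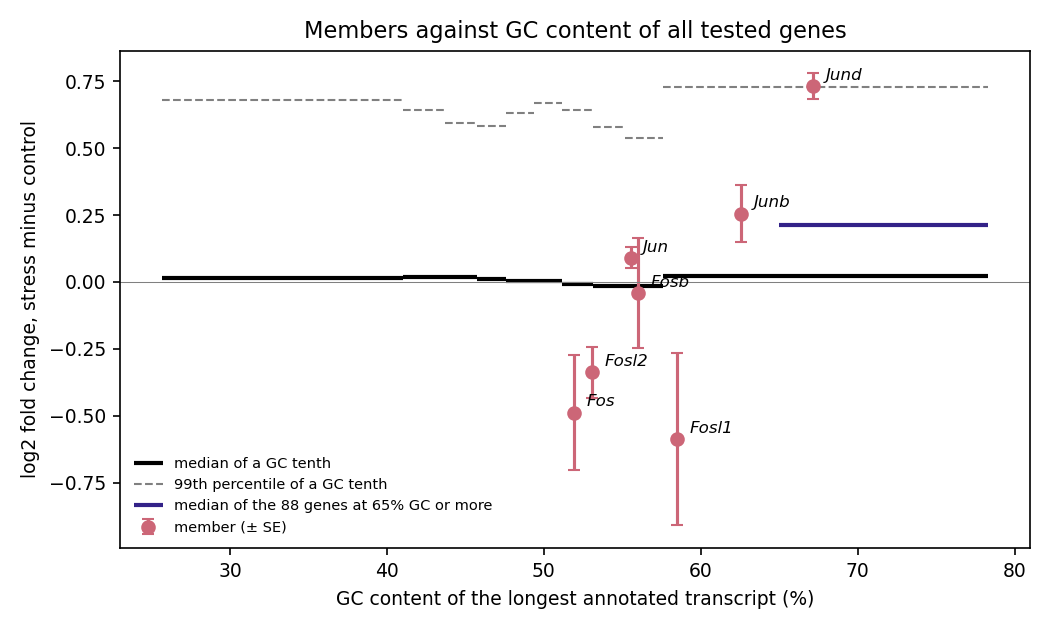
The log2 fold change of stress minus control (y axis) against the GC content of the longest annotated transcript (x axis, %) for the 7 members (red, ± SE), with the median (black) and 99th percentile (dashed) of all tested genes in each of 10 bins of GC content and the median of the 88 genes at 65% or more (dark blue). Jund lies at 67.1% GC with 0.73, where the dark blue median is 0.21.

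The genes whose pattern over the 6 pools was most like Jund were Bmyc, Cox8a, Tpgs1, Trir and Ccdc85b. Likeness was the root mean square distance between log2 CPM profiles centred over the pools, among 11605 other genes with a gene name and a mean of at least 5 CPM, and the 5 lay at 0.0616 to 0.0864. All 5 were called higher, which the choice largely fixes, since the profile of Jund holds its group difference. Cox8a and Ccdc85b were called in 15 of 15 alternatives, while each of Bmyc, Tpgs1 and Trir lost the call without control pool 2 and in 1 or more of the stress pool omissions. Their transcripts had a GC content of 54.8% to 65.3%. For Fos the nearest were mt-Nd6, Ifit3, Serpina3i, Sox11 and Alkal2, at distances of 0.167 to 0.195, and none was called. Over deviations within groups the nearest to Fos were mt-Nd6, Mrgprb5, Stx11, Cdh9 and Cdk5rap1 (0.0829 to 0.128).

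Of the 21 other bZIP factors that can pair with Jun or Fos proteins or share their sites, Atf3 was lower and was the only one called. Atf3, a stress-induced factor that marks injured neurons, measured 28.1, 23.1 and 30.9 CPM in controls and 12.4, 11.0 and 14.6 CPM in stress pools. It fell by 1.12 ± 0.13 SE on the log2 scale (edgeR adjusted p = 0.0443), and the call was lost whichever of the 6 pools was left out, under a robust fit and with only genes of at least 1 CPM (adjusted p between 6.53e-16 and 0.277 over 15 alternatives). Mafa, a large Maf factor, stood at 0.48 ± 0.09 SE (adjusted p = 0.208), and the stress-response factor Ddit3 at -0.16 ± 0.05 SE (adjusted p = 0.318). The DESeq2 Wald test called 2 of the 21, Atf3 and Mafa, beside 301 of the 35147 genes it fitted. It gave 4 of the 21 no adjusted p. The 35147 include genes below the edgeR count filter, which the list leaves out, so the 2 counts have unlike bases. How many of the 35147 had no adjusted p is not given here. The same holds wherever this number stands beside a list below. In edgeR 4 of the 21 had an unadjusted p under 0.05, beside 11.1% of all genes tested, of which 0.129% were called. The median log2 fold change over the 21 was 0.0042.

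Genes upstream of Jun and Fos were close to level. This list of kinases and scaffolds also holds the transcription factors Elk1, Elk4 and Srf and the phosphatase Dusp1. None of 25 was called by edgeR or by the DESeq2 Wald test. In edgeR 2 had an unadjusted p under 0.05, beside 11.1% of all genes tested. Values ran from -0.17 to 0.19 on the log2 scale. Dusp1 and Elk1, neither of them a kinase or scaffold, were the ends of this range and the 2 genes under 0.05. The Jun kinase genes Mapk8, Mapk9 and Mapk10 stood at 0.08 ± 0.04, 0.05 ± 0.04 and -0.03 ± 0.03 SE, and were named although outside the rule. Elk1, which drives Fos through its serum response element, stood at 0.19 ± 0.06 SE (adjusted p = 0.378), Map3k13, a kinase of the axon injury response, at 0.18 ± 0.08 SE (adjusted p = 0.467), and the phosphatase Dusp1 at -0.17 ± 0.06 SE (adjusted p = 0.413). Of 10 genes whose products bind Jun or Fos proteins or turn them over, edgeR and the DESeq2 Wald test called none. An unadjusted p under 0.05 in edgeR was reached by 1 of the 10, beside 11.1% of all genes tested. Men1, also named outside the rule, encodes menin, which binds the Jund protein, and stood at -0.0027 ± 0.0466 SE. The signalosome subunit Cops5 stood at -0.08 ± 0.03 SE (adjusted p = 0.435), the ubiquitin ligase Ubr1 at 0.10 ± 0.06 SE (adjusted p = 0.583) and the kinase Gsk3b at 0.10 ± 0.05 SE (adjusted p = 0.514).

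The list of activity-induced genes outside AP-1 had 15 of 21 values below 0 (71.4%, beside 47.7% of all genes tested), with a median of -0.09. Maff and Egr2 are among those below 0. Maff is also on the list of bZIP partners above, and Egr2 also served as a marker of myelinating Schwann cells. In edgeR none was called and 3 had an unadjusted p under 0.05, beside 11.1% of all genes tested. The list was chosen with earlier results of these data known, so the share below 0 carries no test. The DESeq2 Wald test called 1, Nr4a1, beside 301 of the 35147 genes it fitted, and gave 1 of the 21 no adjusted p. Nr4a1, a nuclear receptor of the immediate early response, measured 36.3, 46.5 and 43.1 CPM in controls and 32.1, 33.6 and 31.0 CPM in stress pools (-0.38 ± 0.09 SE, adjusted p = 0.268). Egr3 stood at -0.41 ± 0.15 SE (adjusted p = 0.399) and the matricellular gene Ccn1 at -0.35 ± 0.13 SE (adjusted p = 0.416). Egr1, named after its values were seen, measured 19.8, 19.2 and 26.3 CPM in controls and 11.8, 13.3 and 23.8 CPM in stress pools. As for Fos, stress pools 1 and 2 lay below all controls and stress pool 3 did not.

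Among 22 tested genes with textbook AP-1 sites, 17 had values below 0 (77.3%, beside 47.7% of all genes tested). In edgeR 1 was called, beside 0.129% of all genes tested, and 7 had an unadjusted p under 0.05, beside 11.1%. This list was likewise chosen with earlier results known, and its shares carry no test. Sprr1a, a small proline-rich protein of injured axons, measured 10.0, 8.07 and 9.24 CPM in controls and 0.387, 0.91 and 0.271 CPM in stress pools, and fell by 4.10 ± 0.38 SE on the log2 scale (edgeR adjusted p = 0.015). Its call was lost in 4 of 15 alternatives: the robust fit, and the omission of pool 1 of either group or of control pool 2 (adjusted p between 1.35e-14 and 0.107 over all 15). Plaur, the urokinase receptor, measured 11.3, 11.2 and 13.1 CPM in controls and 6.87, 6.46 and 7.73 CPM in stress pools, at -0.76 ± 0.10 SE. Plaur just missed the threshold (adjusted p = 0.0565) and passed it once same-numbered pools were paired by a replicate block (adjusted p = 0.0254), which gave 2 called genes on this list. It passed in 6 of 15 alternatives, with adjusted p between 5.19e-09 and 0.316, and in none that left out a pool. Tyrosine hydroxylase (Th) stood at 0.32 ± 0.07 SE (adjusted p = 0.268). The groups also did not overlap for Timp1, Il6 and Ccl2, all lower in stress pools and named after their values were seen, but edgeR called none of them. The DESeq2 Wald test called 4 genes of the list, Sprr1a, Timp1, Plaur and Th, beside 301 of the 35147 genes it fitted. It gave 6 of the 22 no adjusted p. In all 6 of 22 genes did not overlap (27.3%, beside 18.1% of all genes). The share was 23.8% for bZIP partners, 24.0% for kinases and scaffolds, 14.3% for activity-induced genes and 10.0% for genes whose products bind Jun or Fos proteins or turn them over. The median log2 fold change of the 22 was -0.11, and it was -0.21 without control pool 1 and -0.20 without stress pool 2.

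**Figure D5:**
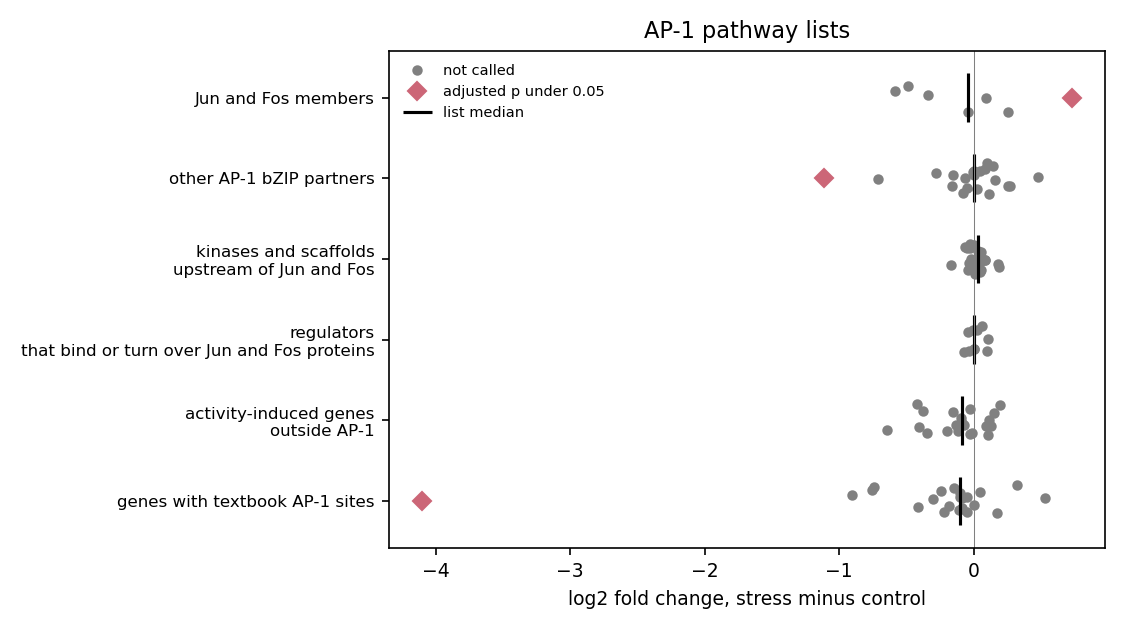
The log2 fold change of stress minus control (x axis) of each tested gene in the 6 AP-1 lists (y axis; vertical scatter has no meaning), with called genes as red diamonds and the list median as a black bar. Called genes are Jund at 0.73, Atf3 at -1.12 and Sprr1a at -4.10, and list medians lie between -0.11 and 0.03.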

How the data were processed

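The authors deposited 1 table per pool with raw read counts by gene symbol, from stranded poly-A libraries. FastQC, STAR 2.4 and HTSeq 0.9.1, and the builds GRCm39 and mm10, are named in the submitters' processing notes; the role of each build is not given in the sources used here. For that reason no coordinates of counted genes are printed. The 5 rows that name no gene (15.3% to 16.2% of each file) were left out.

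Genes passing filterByExpr (minimum count 10) entered edgeR 4.0.16 under R 4.3.3 (quasi-likelihood test, TMM factors, group only). The SE is the log2 fold change divided by the square root of F. The code was tested on simulated data. DESeq2 1.42.0 was an alternative. GC content and length are those of the longest GENCODE M21 transcript (known for 95.2% of tested genes); the correction fitted splines (5 degrees of freedom each) per library. Copies were searched with minimap2 2.31-r1302. The alternatives are given in the closing section.

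The members and lists were chosen with earlier results of these data known. Named were all members, called list genes, the 3 of smallest p per list, and the 5 genes nearest to Jund and to Fos. Deviations from the group means correlated across genes at r = 0.337, 0.218 and 0.13 for same-numbered pools. Differently numbered pools gave r from -0.30 to 0.122, so the pools numbered 3 stood barely above them. A pairing by number was used only in the replicate block, and the main fit left it out. What the number stands for is not given. Pools were treated as separate samples, and the p-values weigh the group difference against the spread between pools. The stress was given to dams, and the labels do not name litters. Whether pools share litters or animals is therefore not known, and the p-values do not allow for it.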

Additional observations from a re-analysis of the deposited data

How the results depend on the processing

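The count of genes called was 26 of 20146, and 49 without the low-count filter. It was 301 of 35147 with the DESeq2 Wald test (24 shared) and 2 to 14 with 1 pool left out. Omitting control pools 1, 2 and 3 gave 14, 2 and 13, and omitting stress pools 1, 2 and 3 gave 4, 10 and 10. The count of Jun and Fos members called was 1 (Jund), and 2 with the DESeq2 Wald test (Jund and Fosl2). With 1 pool left out it was 0 to 1, the 0 arising without control pool 2. The family was chosen on the call of Jund, so nothing is read from the part of Jund in these counts. With the replicate block 22 genes were called (18 shared), the members called stayed at 1, and apart from the AP-1 site genes (2 called) no list count above changed. Under this block Junb stood at 0.26 ± 0.07 SE (edgeR adjusted p = 0.301) and Fos at -0.51 ± 0.13 SE (adjusted p = 0.294), with neither called. The SE of each other member was no smaller than in the main fit. With the block and the GC and length correction together 29 genes were called.

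The log2 fold changes of Jun, Junb, Jund, Fos and Fosl2 kept their sign in 15 of 15 alternatives and that of Fosl1 in 14 of 14. For Jund the choice of the family largely fixes this, and nothing is read from it. Fosb reversed when pool 1 of the controls (0.05), pool 1 of the stress group (0.02) or its pool 2 (0.076) was omitted. Counted per kb, the difference in share of the family total was -4.25 percentage points for Jun (-1.20 by counts), 9.14 for Jund (6.58), -3.05 for Fos (-2.04), -0.14 for Fosl1 (-0.083) and -1.95 for Fosl2 (-3.87). With exon union lengths the control level was 5.11 CPM per kb for Junb, 0.267 for Fosb and 2.35 for Fosl2. With 1 pool left out the median ranged from -0.25 to 0.076 over the members and from -0.0095 to 0.019 over bZIP partners. Over the list of kinases and scaffolds it ranged from -0.0036 to 0.022. Over AP-1 site genes it ranged from -0.21 to -0.07. The called count ranged from 0 to 0 over bZIP partners and from 0 to 1 over AP-1 site genes. The GC and length correction gave medians of 0.040 for bZIP partners and 0.0091 for the list of kinases and scaffolds. The cause of these differences was not tested. Fosl1 had the fewest counts, 11 to 28 per pool. The GC and length correction moved Jund from 0.73 to 0.54.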
